A study of Homo sapiens with 11 samples.

Results

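Genes that move calcium across the membranes of the endoplasmic reticulum (ER), the Golgi and the cell surface were followed in HEK293T cells under 3 agents. The set was chosen by name, from 38021 genes in the deposited table, and holds 10 members. They are the pumps ATP2A2, ATP2B1, ATP2B4 and ATP2C1, the release channels ITPR1 and ITPR3, and the store-operated entry genes STIM1, STIM2, ORAI1 and ORAI3. All 10 members had enough counts to be tested.

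HEK293T is an established human embryonic kidney line, labelled wild type, and every culture was treated for 6 h. Of the 11 conditions, 1 was vehicle (0.1% DMSO), 1 was 500 nM thapsigargin (Tg) and 1 was 10 µM AA147, while the other 8 were AA132, at 0.1, 0.3, 1, 3, 6, 10, 15 or 30 µM. AA147 and AA132 are small molecules named by code. The labels list 1 sample per condition and the table holds 3 numbered columns for each, called libraries here (33 together). Nothing in the labels says that these are separate cultures, so p-values measure only the spread between these libraries, which may be technical. The series title concerns how pharmacological regulators of ER protein homeostasis activate single arms of the ER stress response.

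The ER lumen stores calcium, which SERCA pumps such as the ATP2A2 product load and IP3 receptors (ITPR genes) release. When the store empties, STIM proteins in the ER membrane sense the loss and open ORAI channels in the plasma membrane, while plasma membrane pumps (ATP2B genes) expel calcium and ATP2C1 supplies the Golgi. Thapsigargin blocks SERCA pumps, so the store drains through leak pathways and chaperones in the lumen that need calcium fail.

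Levels are given as CPM, a gene's counts as parts of its library's scaled total. Library totals ran from 32.3 to 37.96 M counts. All 9 genes listed as HEK293T markers had counts in every library, PAX2 the fewest at 0.41 to 1.53 CPM, and the summed blood markers stayed at or under 0.212 CPM. The fibroblast list summed to 19.7 to 49.9 CPM, nearly all of it COL1A1. Vehicle library 1 stood apart from the other vehicle libraries in long genes. Among 2350 genes with at least 10 kb of exon, its median log2 difference from the mean of the other 2 libraries was -0.28, against 0.02 over all genes tested. The same log2 difference was -0.82 for ATP2B4, -0.65 for ITPR1, 0.56 for ORAI1 and 0.59 for ORAI3. AA132 libraries that stood apart in HSPA5 (BiP, an ER stress readout) were 1 µM library 1 (1660 CPM against 1028 and 1093 in the other 2), 3 µM library 3 (1042 CPM against 1921 and 1969) and 10 µM library 1 (1854 CPM against 2687 and 2836). The 3 µM library 3 thus lay at the level of the other 1 µM libraries, and 1 µM library 1 lay nearer to the other 3 µM libraries than to its own. Whether these 2 were exchanged was not tested, they were used as labelled, and leaving out either one gave 0 called members at both doses. Among AA132 30 µM libraries, library 3 stood at -0.49 for ITPR1, -0.41 for ATP2B4 and -0.17 for ATP2B1 on the same log2 measure. Its median over the long genes was -0.11. Of these 3 members only ITPR1 has at least 10 kb of exon (ATP2B4 has 9502 bases and ATP2B1 9523). The other members over 10 kb, ATP2A2 and STIM1, stood at -0.08 and 0.11 there, and at -0.20 and 0.02 in vehicle library 1. Whether the long-gene shift accounts for the members' values in these libraries was not tested. A gene is named as called where the adjusted p (edgeR quasi-likelihood test, Benjamini-Hochberg over 17793 genes) was under 0.05, and values without vehicle library 1 are given beside many of the results.

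ATP2A2, the gene of the SERCA pump that Tg blocks, lies at chr12:110280756-110351093 on the plus strand of GRCh38 in GENCODE v44, from which all member positions are taken. Of its promoter windows in RefSeq (GRCh38.p14, 250 bases before to 50 after a start site), one is printed because ATP2A2 was the member that changed most and the window holds a stretch close to the ER stress element known from chaperone genes. That window is chr12:110280997-110281296, plus strand, 5′ to 3′, and the capitals mark the stretch. The ER stress element was searched on both strands as CCAAT, any 9 bases, then CCACG.

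ATP2A2 promoter: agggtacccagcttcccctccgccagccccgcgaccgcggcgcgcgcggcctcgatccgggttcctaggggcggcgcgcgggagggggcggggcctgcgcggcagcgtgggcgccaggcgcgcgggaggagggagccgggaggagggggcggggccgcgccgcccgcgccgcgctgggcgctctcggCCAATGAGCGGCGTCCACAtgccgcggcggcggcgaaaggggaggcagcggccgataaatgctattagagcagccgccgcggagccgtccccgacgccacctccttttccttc

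HSPA5 element: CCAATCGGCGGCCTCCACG

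The second line is the exact element in the RefSeq window of HSPA5, the ER chaperone BiP, for comparison. The ATP2A2 stretch starts 63 bases before the start site and the HSPA5 element 66 before its own, and the ATP2A2 stretch ends in a base other than the element's last G. An exact element was held by 27 of 34796 promoter windows (0.0776%), and with the last base free, a form chosen after the ATP2A2 sequence was seen, by 110 windows (0.316%). None of the 16 windows of the 9 members with one held the exact element, a second ER stress element (ATTGG, any base, then CCACG; 0.0546% of windows), TGACGTG (1.96%) or TGATGNAA (3.63%). CCACG alone, which lies inside the first 2 motifs, was found in windows of ATP2A2, STIM1, STIM2 and ITPR1 and in 38.04% of all windows. These are matches of letters, and no binding was measured here.

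Tg was compared with vehicle to see how the RNA of this set differed after 6 h. ATP2A2, ATP2B1 and ITPR1 rose, ATP2B4 and ITPR3 fell, and ATP2C1, STIM1, STIM2, ORAI1 and ORAI3 did not pass the test. That is 5 of 10 members called, against 31.2% of all genes tested (16.2% higher and 15% lower). The members' median log2 fold change was -0.06 and that of all genes 0.00. In bulk RNA, fewer cells of a type and less RNA per cell cannot be told apart.

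ATP2A2 measured 512, 603 and 577 CPM in the vehicle libraries and 1235, 1197 and 1240 CPM under Tg. Every Tg library was far above every vehicle library, and the groups did not overlap. The mean went from 564 ± 46.7 CPM to 1224 ± 23.9 CPM (SD, n = 3 each), a log2 fold change of 1.12 ± 0.07 (SE; 2.17-fold; adjusted p = 1.21e-14). Its absolute log2 fold change was larger than that of 94.7% of all genes tested. HSPA5, the reference for the ER stress response, had 881 to 1025 CPM in vehicle and 10778 to 11323 CPM under Tg.

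The plasma membrane pumps moved in opposite directions. ATP2B1 (chr12:89588049-89709366) had 160, 217 and 195 CPM in vehicle and 235, 241 and 239 CPM under Tg, so all Tg libraries lay above all vehicle libraries. Its log2 fold change was 0.32 ± 0.07 (adjusted p = 0.000693), and 0.21 without vehicle library 1, the lowest (adjusted p = 0.0114).

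ATP2B4 (chr1:203626832-203744081) had 11.6, 21.3 and 19.8 CPM in vehicle and 10.2, 12.1 and 11.5 CPM under Tg. The groups overlapped because vehicle library 1 sat at the Tg level, while the other 2 vehicle libraries were well above it. The log2 fold change was -0.64 ± 0.14 (adjusted p = 0.000530), and -0.87 without that library (adjusted p = 9.10e-08).

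ATP2C1 (chr3:130850595-131016712), the calcium and manganese pump of the Golgi, had 98.0, 112 and 105 CPM in vehicle and 91.0, 94.7 and 96.3 CPM under Tg. All Tg libraries were below all vehicle libraries, but the log2 fold change of -0.16 ± 0.07 did not pass (adjusted p = 0.0888). Without vehicle library 1 it was -0.21 and passed (adjusted p = 0.0270), and without AA132 10 µM library 1, which is in neither group, it was -0.18 and passed (adjusted p = 0.0346).

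The IP3 receptors also differed in direction. ITPR1 (chr3:4493345-4847506) had 14.8, 25.4 and 21.4 CPM in vehicle and 36.3, 33.4 and 34.0 CPM under Tg. The Tg libraries lay close together above the scattered vehicle libraries. Its log2 fold change was 0.75 ± 0.13 (1.68-fold; adjusted p = 3.21e-05), and 0.56 without vehicle library 1 (adjusted p = 0.000361).

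ITPR3 (chr6:33620365-33696574) had 109, 118 and 106 CPM in vehicle and 93.9, 96.3 and 97.8 CPM under Tg, with no overlap. It fell by 0.21 ± 0.06 on the log2 scale (adjusted p = 0.00695). Of its exon bases, 10.4% overlap UQCC2 on the opposite strand, and the use of strand in counting is not given in the sources used here. As a ratio of counts, ITPR3 to ITPR1 went from 5.64 ± 1.48 in vehicle to 2.78 ± 0.17 under Tg, with no overlap between libraries. With only the vehicle and Tg libraries in the fit, ATP2A2 (adjusted p = 2.00e-05) and ITPR1 (0.0167) were called, and ATP2B1 (0.0644), ATP2B4 (0.0606) and ITPR3 (0.0953) were not.

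The sensors and channels of store-operated entry showed small differences. STIM1 (chr11:3854527-4093210), the main ER calcium sensor, had 59.0, 57.2 and 59.5 CPM in vehicle and 56.3, 52.9 and 57.7 CPM under Tg, which overlapped. Its log2 fold change was -0.07, with a 95% interval of -0.19 to 0.04 (adjusted p = 0.351). STIM2 (chr4:26857601-27025381), which responds to smaller losses of store calcium, had a log2 fold change of -0.13 (interval -0.30 to 0.05; adjusted p = 0.294), and -0.22 without vehicle library 1 (adjusted p = 0.0671).

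ORAI1 (chr12:121626509-121643218), the pore subunit of the entry channel, had 9.95, 5.59 and 8.11 CPM in vehicle and 7.36, 6.55 and 8.99 CPM under Tg. The vehicle libraries spread wider than the whole Tg group. Its log2 fold change was -0.05 and its interval, -0.36 to 0.27, was wide beside those of the STIM genes. ORAI3 (chr16:30949068-30956461), a related subunit, had 4.85, 3.50 and 2.92 CPM in vehicle and a log2 fold change of -0.04 (interval -0.40 to 0.32). Without vehicle library 1, the highest for both, the direction turned, to 0.15 for ORAI1 and 0.18 for ORAI3, and neither passed (adjusted p = 0.534 for each). Of the exon bases of ORAI3, 52.9% lie in another annotated gene on the same strand, so its count is uncertain.

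**Figure D1:**
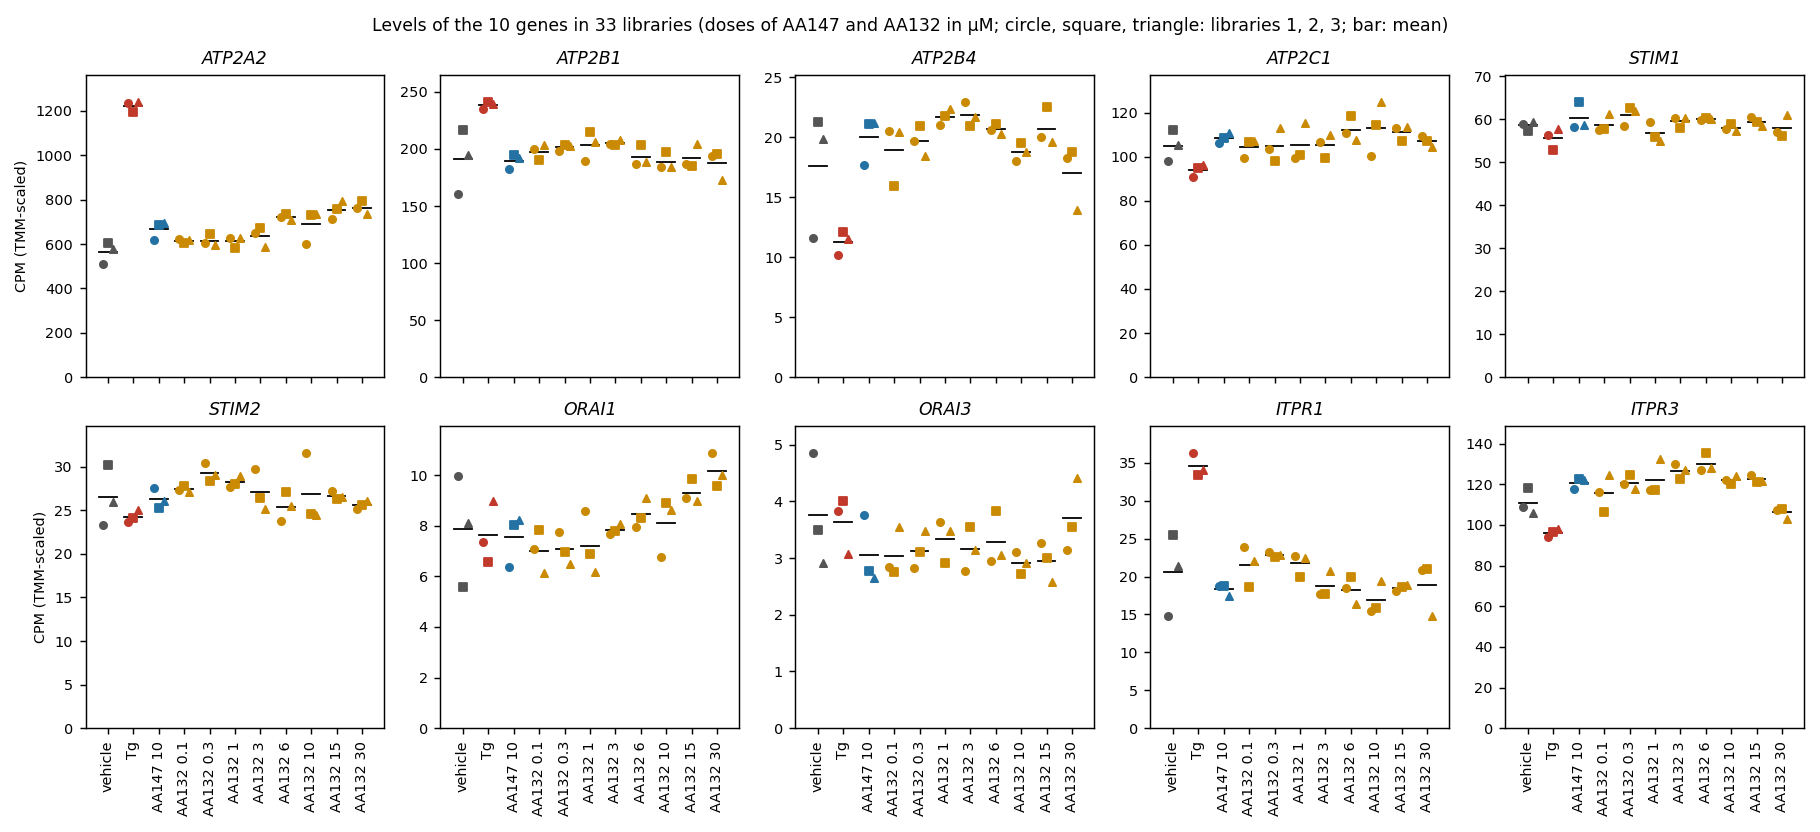
CPM of each member in each of the 33 libraries, 1 panel per gene, with conditions along the horizontal axis. Points are libraries, and ATP2A2 and ITPR1 stand highest under Tg while ATP2B4 and ITPR3 are lowest there.

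Per kilobase of exon, which allows levels to be set between genes, ATP2A2 was the most abundant member in vehicle at 41.0 ± 3.40 CPM per kb. ATP2B1 followed at 20.03 ± 2.99, then ATP2C1 at 12.3 ± 0.827 and ITPR3 at 11.2 ± 0.651, which overlapped each other. STIM1 had 4.86 ± 0.0983 CPM per kb. STIM2 (3.20), ORAI1 (2.77), ATP2B4 (1.85) and ORAI3 (1.42) came next, each overlapping its neighbour. ITPR1 was lowest at 0.64 ± 0.167 CPM per kb. Its annotated exons add up to 32120 bases over all transcripts, the longest total of the members, and a shorter transcript would give a higher value. Under Tg, ATP2A2 stood at 89.1 ± 1.74 CPM per kb still the highest. ITPR1, at 1.08 ± 0.0475, still had the lowest mean but overlapped ATP2B4 (1.18 ± 0.103).

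**Figure D2:**
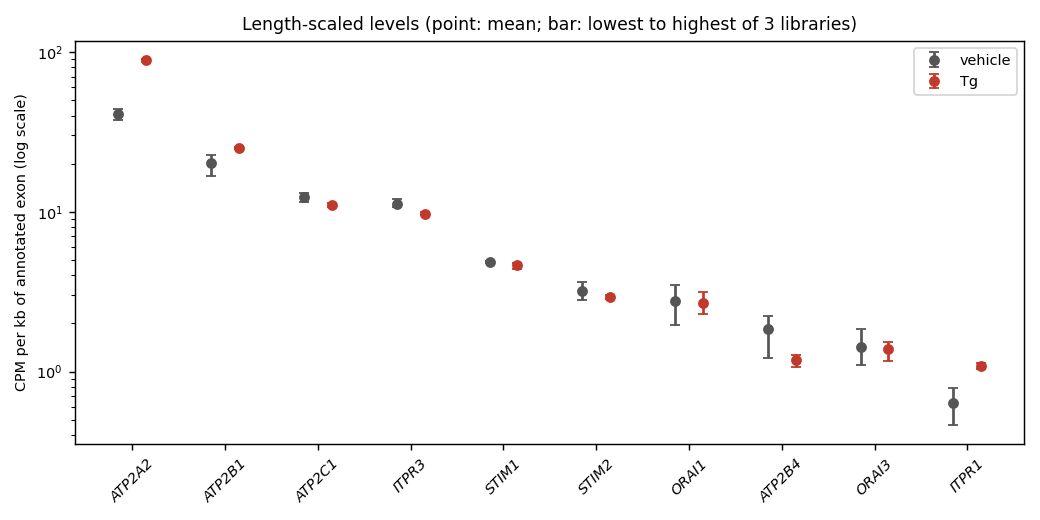
Mean CPM per kilobase of exon for each member in vehicle and under Tg, on a log axis, with the spread over 3 libraries. ATP2A2 leads in both conditions, at 41.0 in vehicle and 89.1 under Tg, and ITPR1 has the lowest mean in both, although under Tg it overlaps ATP2B4.

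AA132 was given at 8 doses to see how the response grew with dose, and each dose shared the same 3 vehicle libraries. ATP2A2 was the only member called at 10, 15 and 30 µM, and at 6 µM it was called with ITPR3. At the 4 doses from 0.1 to 3 µM the edgeR test called 0 members, and DESeq2 also called 0 at each. In order of dose, 0, 1, 2 and 3 members had an unadjusted edgeR p under 0.05. The same numbers were 796, 981, 1057 and 1635 among the 17793 genes tested. Over all genes, 0% were called at each of the 3 lowest doses. With 3, 6, 10, 15 and 30 µM the shares were 0.118%, 1.07%, 1.41%, 2.76% and 7.05%.

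ATP2A2 libraries measured 621, 603 and 618 CPM at 0.1 µM, 606, 643 and 594 at 0.3 µM, and 627, 584 and 627 at 1 µM. The 3 µM libraries had 652, 672 and 587 CPM, those of 6 µM 723, 736 and 707, and those of 10 µM 598, 731 and 735. At 15 µM they were 711, 759 and 794 CPM, and at 30 µM 763, 793 and 734 CPM. From 6 µM up, all libraries but 1 were above 700 CPM, and none reached the Tg level.

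The exception was 10 µM library 1, at 598 CPM, where HSPA5 was low too. Against vehicle, ATP2A2 rose by 0.36 on the log2 scale with 6 µM (adjusted p = 0.00362) and by 0.29 with 10 µM (adjusted p = 0.0236). With 15 µM the rise was 0.42 (adjusted p = 0.000228) and with 30 µM 0.44 ± 0.07 (1.35-fold; adjusted p = 9.20e-05). Without 10 µM library 1 the 10 µM value was 0.37 (adjusted p = 0.000690). Without vehicle library 1 it was 0.22 and was not called (adjusted p = 0.0702). It was also not called without 10 µM library 2 (0.24; adjusted p = 0.119) or library 3 (0.24; adjusted p = 0.144). The 30 µM value without vehicle library 1 was 0.37 (adjusted p = 0.000534). With only the 6 libraries of a dose and vehicle in the fit, ATP2A2 was called at none of these 4 doses (adjusted p = 0.2001, 1.00, 0.104 and 0.0719 in order of dose).

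Across the 24 AA132 libraries alone, which share no vehicle, a slope on log10 dose was called for 3 members, against 18.5% of all genes (9.7% rising and 8.75% falling). ATP2A2 rose by 0.14 ± 0.02 (log2 per 10-fold dose; adjusted p = 2.32e-05), and ORAI1 by 0.21 ± 0.04 (adjusted p = 0.000189). ITPR1 fell by 0.14 ± 0.04 per 10-fold dose (adjusted p = 0.00423). Without the 30 µM dose the slopes were 0.13, 0.17 and -0.17 and all 3 were still called. The same 3 slopes were 0.14, 0.21 and -0.14 without both 1 µM library 1 and 3 µM library 3, and were still called. The median slope was -0.02 for genes with at least 10 kb of exon, such as ITPR1, and 0.00 over all genes tested. Of 8 tested relatives of the members, 2 fell with dose, ITPR2 among them (-0.12; adjusted p = 0.00259), and 1 rose. The part of gene length in the ITPR1 slope was not tested.

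ORAI1 measured 7.06, 7.85 and 6.15 CPM at 0.1 µM and 10.9, 9.56 and 10.0 CPM at 30 µM. These end doses did not overlap, but vehicle, at 5.59 to 9.95 CPM, covered most of the range between them. Against vehicle, the 30 µM log2 fold change of 0.36 did not pass (adjusted p = 0.155), and without vehicle library 1 it was 0.57 and passed (adjusted p = 0.0148).

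ITPR1 measured 23.9, 18.6 and 22.0 CPM at 0.1 µM, 15.5, 15.8 and 19.4 CPM at 10 µM, and 20.8, 20.9 and 14.8 CPM at 30 µM. The 10 µM mean, 16.9 ± 2.17 CPM, was the lowest of the 11 conditions, and the 30 µM libraries overlapped those at 0.1 µM. At 10 µM its log2 fold change against vehicle was -0.28 and did not pass (adjusted p = 0.367). Without vehicle library 1 it was -0.47 and passed (adjusted p = 0.0194). The 30 µM value against vehicle was -0.12 (adjusted p = 0.657). For ITPR1 it turned to 0.02 without 30 µM library 3 (adjusted p = 0.954), and was -0.31 without vehicle library 1 (adjusted p = 0.0847).

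ITPR3 did not follow the dose in 1 direction. It measured 127, 135 and 128 CPM at 6 µM and 107, 108 and 103 CPM at 30 µM, against 106 to 118 CPM in vehicle. The 6 µM mean was the highest of the 11 conditions, and the 30 µM libraries lay in and below the vehicle range. At 6 µM the log2 fold change was 0.23 (adjusted p = 0.0451), and this call was lost under 26 of the 39 alternatives run, among them leaving out vehicle library 1 (0.22; adjusted p = 0.0524) and leaving out 6 µM library 1 (adjusted p = 0.102), 2 (0.217) or 3 (0.101). Its slope was -0.01 and did not pass (adjusted p = 0.899).

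**Figure D3:**
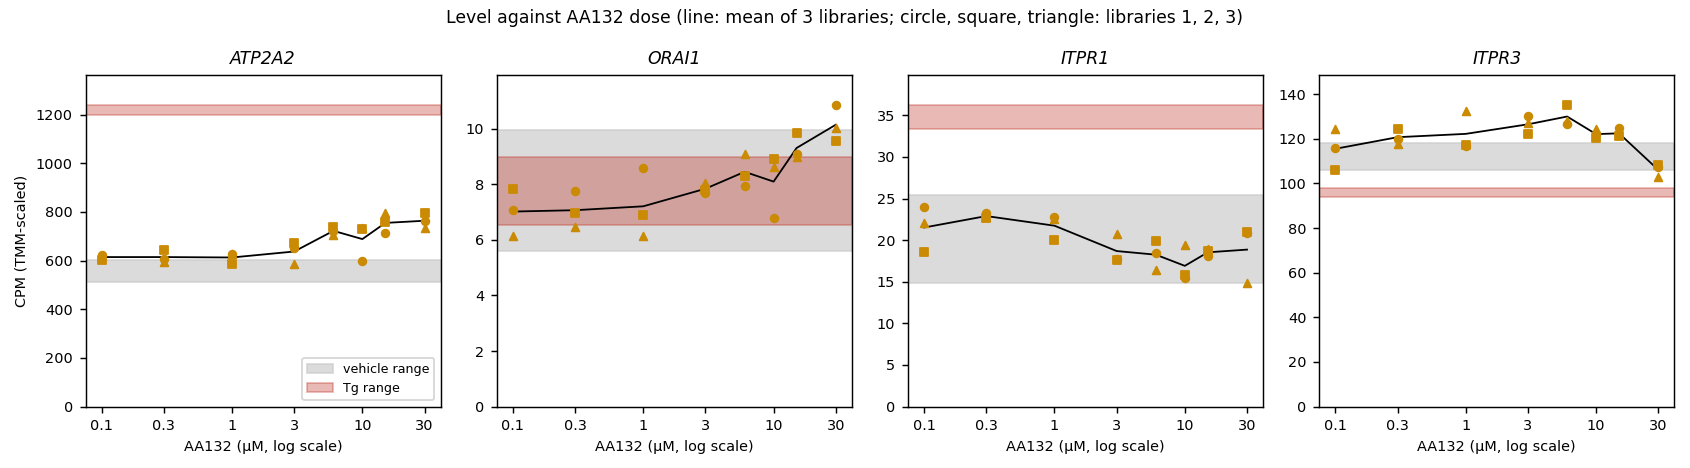
CPM of ATP2A2, ORAI1, ITPR1 and ITPR3 against AA132 dose in µM on a log axis, each point a library, with grey and red bands for the vehicle and Tg ranges. ATP2A2 stays under the Tg band at all doses, ITPR1 stays between 14.8 and 23.9 CPM, and ITPR3 is highest at 6 µM.

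Against vehicle, the 8 members other than ATP2A2 and ITPR3 were called at no AA132 dose. STIM1 was the steadiest member, with condition means from 55.7 CPM (Tg) to 61.0 CPM (AA132 0.3 µM), 1.096-fold apart. In order of condition means, no neighbouring conditions separated for STIM1, STIM2, ORAI1 or ORAI3. For the other 6 members only Tg separated from its neighbour, at the top for ATP2A2, ATP2B1 and ITPR1 and at the bottom for ATP2B4, ATP2C1 and ITPR3. The neighbour in this order need not be vehicle, and ATP2B4 under Tg overlapped vehicle. With AA132, ITPR3 (3, 6, 10 and 15 µM), ATP2A2 (0.1, 6, 15 and 30 µM) and STIM1 (6 µM) lay above all vehicle libraries. The share of all genes that separate in these ways is not given here. The highest mean was 2.17 times the lowest for ATP2A2, 2.04 times for ITPR1 and 1.94 times for ATP2B4.

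AA147, compared with vehicle at 10 µM, gave 0 called members in edgeR and in DESeq2, where edgeR called 0.0225% of all genes. At an unadjusted edgeR p under 0.05 there were 2 members, and 1211 of the 17793 genes tested. ATP2A2 measured 619, 686 and 693 CPM with AA147, above all vehicle libraries. So did AA132 at 0.1 µM, by a small margin (lowest library 603.5 CPM, highest vehicle library 602.8), where 0% of genes were called. The ATP2A2 log2 fold change with AA147, 0.24 (interval 0.10 to 0.38), did not pass (adjusted p = 0.360). Member log2 fold changes ran from -0.29 to 0.24.

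AA132 and AA147 were compared directly at the matched dose of 10 µM. Of the 10 members 0 were called in edgeR and 0 in DESeq2, where edgeR called 0.0674% of all genes. At an unadjusted edgeR p under 0.05 there were 0 members, and 1425 of the 17793 genes tested. Log2 differences of AA132 from AA147 ran from -0.12 to 0.10 and their 95% intervals from -0.44 to 0.42, and differences up to those bounds are compatible with these libraries. For ATP2A2 the difference was 0.05, with an interval of -0.09 to 0.19.

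AA132 at 30 µM was then set against Tg. Of the 10 members 6 were called, against 29.8% of all genes (14.3% higher and 15.5% lower with AA132). ATP2A2 (-0.68 ± 0.07; adjusted p = 2.20e-09), ATP2B1 (-0.35 ± 0.07; adjusted p = 0.000332) and ITPR1 (-0.87 ± 0.13; adjusted p = 3.72e-06) were lower with AA132 on the log2 scale. ATP2B4 was higher by 0.60 ± 0.14 (adjusted p = 0.00130), at 18.3, 18.8 and 13.96 CPM, all above the Tg libraries. Without 30 µM library 3, the differences were -0.72 for ITPR1 (adjusted p = 0.000133) and 0.72 for ATP2B4 (adjusted p = 0.000330). ATP2C1 (0.19; adjusted p = 0.0464) and ORAI1 (0.41; adjusted p = 0.0396) were called higher. The ATP2C1 call was lost without the filter on low counts and when any of 9 single libraries was left out, with adjusted p-values up to 0.124. The ORAI1 call was lost without Tg library 1 (0.40; adjusted p = 0.0977) or 2 (0.31; adjusted p = 0.190), or without 30 µM library 1 (0.36; adjusted p = 0.129) or 3 (0.42; adjusted p = 0.0699).

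Ratios between members, such as that of the 2 pumps that rose under Tg, come from the same counts and are no separate test. As a ratio of counts, ATP2A2 to ATP2B1 was 2.98 ± 0.21 in vehicle, 4.08 ± 0.15 with AA132 at 30 µM and 5.13 ± 0.15 under Tg (SD, n = 3), and no 2 of these groups overlapped. STIM2 to STIM1 was 0.45, 0.44 and 0.44.

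**Figure D4:**
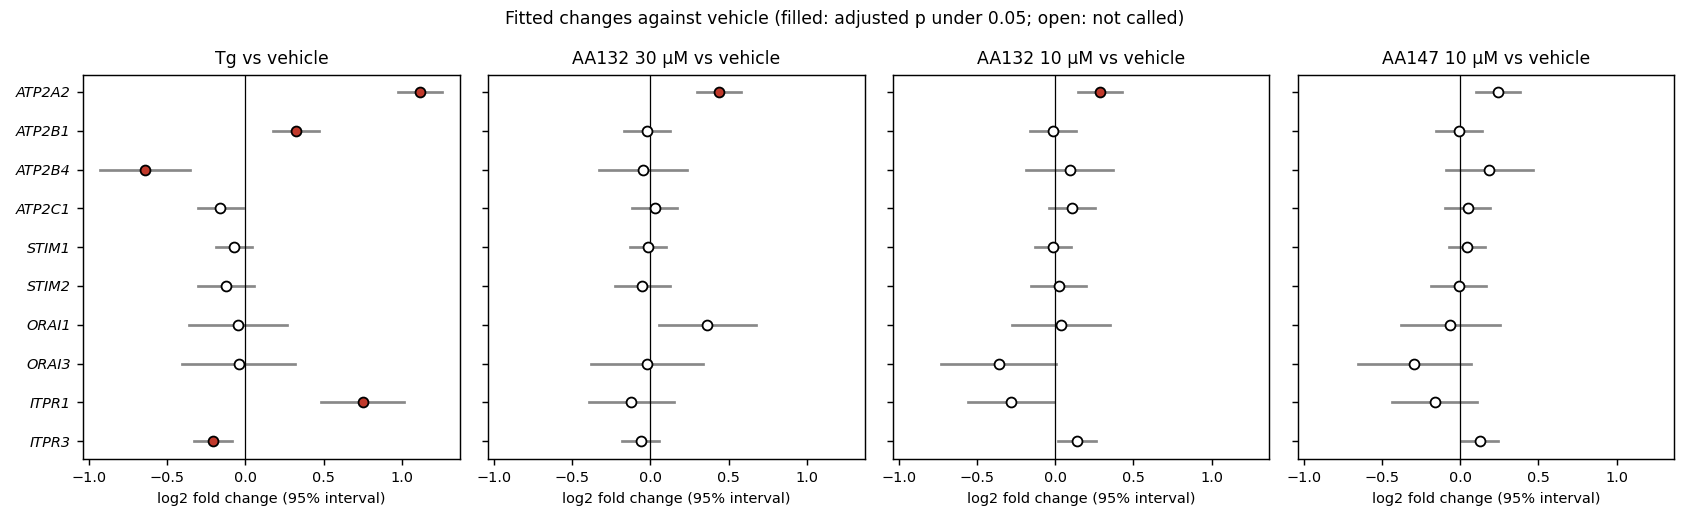
Log2 fold change of each member against vehicle with its 95% interval, for Tg, AA132 at 30 and 10 µM and AA147 at 10 µM. Filled points passed an adjusted p of 0.05, and 5 members do so under Tg but only ATP2A2 with AA132 at these 2 doses.

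Genes around the members were read from lists of the same pathway, and each count under Tg stands beside the same 31.2% called over all genes (16.2% higher and 15% lower). For AA132 against vehicle, the share called over all genes was 1.41% at 10 µM and 7.05% at 30 µM. Among 8 tested relatives of the members (of 10), 1 rose and 1 fell under Tg. ORAI2, a further entry channel subunit, went from 15.4 ± 1.46 to 19.3 ± 0.829 CPM, a log2 rise of 0.32 (adjusted p = 0.00832). ATP2A3, another SERCA gene, fell by 0.97 on the log2 scale, from 2.58 ± 0.0431 to 1.32 ± 0.326 CPM (adjusted p = 0.00346). ITPR2, the remaining IP3 receptor, had 64.4 ± 21.0 CPM in vehicle and 73.8 ± 1.53 under Tg, and did not pass (adjusted p = 0.315). With AA132 at 30 µM the only relative called was ATP2A1, the SERCA gene of fast skeletal muscle, at 1.77 ± 0.389 CPM in vehicle and 2.89 ± 0.277 CPM with AA132 (log2 fold change 0.71; adjusted p = 0.0252). That is 1 of 8 tested relatives, beside the 7.05% called over all genes.

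Of the genes that regulate pumps, 5 of 10 had enough counts, and 3 of these fell under Tg, where 15% of all genes did, while the other two did not pass. Those that fell were C4orf3, a small membrane protein that inhibits SERCA (-0.54; adjusted p = 0.000184), and NPTN (-0.48; adjusted p = 1.43e-08) and BSG (-0.21; adjusted p = 0.0498), partner subunits of plasma membrane pumps. BSG passed only narrowly, with 583 ± 90.6 CPM in vehicle and 504 ± 27.8 CPM under Tg. PLN, SLN, MRLN, STRIT1 and SMIM6, other small SERCA regulators, had at most 5 counts in any library.

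Of 10 regulators of store-operated entry, 3 rose and 2 fell under Tg, beside 31.2% of all genes called. SELENOK, an ER selenoprotein, went from 21.0 ± 2.02 to 62.6 ± 0.432 CPM, a log2 rise of 1.57 (adjusted p = 1.74e-14). SARAF, which limits entry through STIM and ORAI, went from 168 ± 2.25 to 246 ± 5.00 CPM (0.55; adjusted p = 2.43e-07), and TRPC1, a plasma membrane cation channel, rose by 0.48 (adjusted p = 0.0385).

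Those that fell were ESYT1, a tether of the ER to the plasma membrane (-0.25; adjusted p = 0.000633), and STIMATE, a STIM1 partner (-0.25; adjusted p = 0.0482). With AA132 at 30 µM, SELENOK (0.49; adjusted p = 0.00191) and SARAF (0.34; adjusted p = 0.00251) were again called higher, against the same vehicle libraries, beside 7.05% of all genes called. At 10 µM AA132 SELENOK was the only gene of the 5 lists called (0.59; adjusted p = 0.000441), beside 1.41% of all genes.

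Of 10 tested regulators of IP3 receptors and ER calcium leak, 2 rose and 2 fell under Tg, beside 31.2% of all genes called. RNF170, a ubiquitin ligase for IP3 receptors, rose by 0.32 (adjusted p = 0.00643), and AHCYL1, which competes with IP3 at the receptor, by 0.29 (adjusted p = 0.000409). GRINA (-0.39; adjusted p = 0.00233) and PSEN2 (-0.24; adjusted p = 0.00309) fell. With AA132 at 30 µM, TMBIM6, an ER leak protein, was among the genes called higher (0.21; adjusted p = 0.0144).

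Of 10 genes of mitochondrial calcium handling, 2 rose and 4 fell under Tg, beside 31.2% of all genes called. MCUR1, a regulator of the mitochondrial calcium uniporter, rose by 0.58 (adjusted p = 5.69e-10) and SMDT1, a uniporter subunit, by 0.30 (adjusted p = 0.0181). SLC8B1, the mitochondrial sodium and calcium exchanger (-0.62; adjusted p = 0.000312), VDAC1, an outer membrane channel (-0.53; adjusted p = 2.05e-07) and LETM1 (-0.29; adjusted p = 0.00215) were among those that fell. With AA132 at 30 µM, MCUR1 was higher by 0.25 (adjusted p = 0.00478) and LETM1 lower (-0.33; adjusted p = 0.00501).

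The genes whose log2 CPM moved most like ATP2A2 over the 33 libraries were SLC7A5, an amino acid transporter (Pearson r = 0.98), CANX, an ER lectin chaperone (0.98), and HYOU1, an ER chaperone (0.97), among 14010 genes. HSPA5 ranked 18th, at 0.96. Without the Tg libraries, over 30 libraries, the closest were CANX (0.94), NPC1, a cholesterol transporter of the lysosome (0.94), and SLC7A5 (0.93), with HSPA5 at 0.88. By rank over the 33 libraries, SLC7A5 was again closest (Spearman rho = 0.96). These correlations describe libraries that share conditions and scaling.

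No other member followed ATP2A2 as closely. By Pearson r over the 33 libraries the highest were ITPR1 (0.61) and ATP2B1 (0.61), and the lowest was ATP2B4 (-0.59). Without Tg, ORAI1 was the highest at 0.54, while ITPR1 stood at -0.19, ATP2B1 at -0.0006 and ATP2B4 at 0.23. By rank over the 33 libraries ITPR1 had 0.08 and ATP2B1 0.10, with ORAI1 highest (0.45) and STIM2 lowest (-0.50). Against vehicle (794 ± 151 CPM), CANX rose by 1.41 on the log2 scale under Tg (adjusted p = 6.77e-14), by 0.52 with AA132 at 10 µM (adjusted p = 0.00101) and by 0.58 with AA132 at 30 µM (adjusted p = 0.000111), beside 1.12, 0.29 and 0.44 for ATP2A2. CANX was picked for its likeness to ATP2A2 in these same libraries, so its rise in the same conditions is no separate result.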

How the data were processed

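The deposited table gives expected counts (estimated reads per gene, unscaled), made by the authors. The column headers call them total reads. The submitters' processing notes name GRCh38.p7, while the counting tool and the use of strand are not given in the sources used here. The lowest value, 0.009, is held by 43.5% of cells and was read as 0. A further 3.22% of cells held fractions and were rounded. Of 38074 entries, 98 shared names and were summed, which left 38021 genes, and 28 entries with date-like names were kept in library totals but not named.

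Within a condition, libraries differed beyond counting error (chi-square per degree of freedom 4.67 to 64.5 over 33 pairs, median 8.01). Both pairs with library 1 were highest in vehicle (64.5 and 49.9), AA132 10 µM (39.1 and 36.4) and AA147 (24.8 and 23.9). Totals were 36.4 to 37.96 M counts in all but 1 library, AA132 10 µM library 3, which had 32.3 M. The labels name no batch.

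Genes were tested with edgeR 4.0.16 (R 4.3.3) by its quasi-likelihood method, with TMM scaling, the edgeR filter on low counts (17793 genes kept), all 33 libraries in 1 fit and no replicate block. The slope was fitted on the 24 AA132 libraries. CPM on the log scale used a prior count of 2. Alternatives were DESeq2 1.42.0, its size factors, no filter, a replicate block, fits of only 2 conditions, a minimum fold change and each library left out. Likeness to ATP2A2 used genes with a mean of at least 1 CPM. Lengths and positions are from GENCODE v44, and promoter windows from RefSeq.

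The members are named one by one. From each of 5 other lists, up to 3 called genes with the largest change are named for Tg, AA147 and AA132 at 10 and 30 µM, with the 3 genes most like ATP2A2 and HSPA5 as reference. Further list genes (ITPR2, ESYT1, STIMATE, PSEN2, SMDT1, LETM1 under Tg and the genes too low to test) were named after their values were seen, and some list genes are not reported here. The members and lists were chosen with earlier results of these data known.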

Additional observations from a re-analysis of the deposited data

How the results depend on the processing

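No called value of a member changed sign in any alternative run. When called genes also needed a log2 fold change of 1 or more in size, the members called were 1 for Tg, 0 for AA132 at 6, 10, 15 and 30 µM, 0 for AA132 at 30 µM against Tg and, with a minimum slope of 0.5, 0 for the dose slope. In fits of only the 2 conditions compared, 2 members were called for Tg (ATP2A2 and ITPR1) and 0 for AA132 at 6, 10, 15 and 30 µM. The cause was not tested. Without the filter on low counts 1 member was called at 6 µM.

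Deviations of libraries with the same number had correlations from -0.15 to 0.18 over the comparisons, and in no comparison were all above 0.1. For AA132 against AA147 at 10 µM they were 0.18, 0.03 and 0.06. With 3 libraries per condition these values cannot decide whether the numbers pair the libraries. The fit with a replicate block called 1 member at 6 µM, where ITPR3 had an adjusted p of 0.0530, and changed no other member's call.

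With each library left out in turn, members called ran from 5 to 6 for Tg, 1 to 2 at 6 µM, 0 to 1 at 10 µM, 1 to 1 at 15 µM, 1 to 2 at 30 µM, 4 to 7 for AA132 at 30 µM against Tg, and 3 to 4 for the slope. They stayed at 0 for AA147, for AA132 at 0.1, 0.3, 1 and 3 µM, and for AA132 against AA147. DESeq2 called 7 members for AA132 at 30 µM against Tg, adding ITPR3 (0.15; adjusted p = 0.0274). Without 10 µM library 1 the STIM2 slope of -0.07 was also called (adjusted p = 0.0261).

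Over all genes, the minimum fold change cut the calls for Tg from 5551 to 796, for AA132 at 30 µM from 1255 to 87, for 30 µM against Tg from 5305 to 641 and for the slope from 3283 to 98. Fits of 2 conditions gave 3073 for Tg, and 25, 8, 46 and 74 at 6, 10, 15 and 30 µM, against 190, 250, 491 and 1255. Without the filter, AA147 had 82 in place of 4, 3 µM 153 in place of 21, 6 µM 360 and 10 µM 411. DESeq2 called 30 for AA147, 71 at 3 µM, 344, 492 and 807 at 6, 10 and 15 µM, and 67 for AA132 against AA147 in place of 12. The slope without 30 µM had 2040. With each library left out in turn the counts ran from 95 to 506 at 6 µM, 156 to 651 at 10 µM, 267 to 920 at 15 µM, 700 to 2017 at 30 µM, 0 to 85 at 3 µM, 0 to 15 for AA147 and 0 to 77 for AA132 against AA147. The counts of 506, 651 and 2017 were without vehicle library 1.

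ORAI1 and ORAI3 had the fewest counts of the members, from 91 per library for ORAI3. Vehicle CVs were 27.7% for ORAI1, 26.4% for ORAI3, 29.8% for ATP2B4 and 26.1% for ITPR1, and the part of depth was not tested.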
